A study of Mus musculus with 26 samples.

Results

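Acetylation of histone H3 at lysine 27 (H3K27ac) after 1 h of lipopolysaccharide (LPS) was followed in the GFP line of a study of the nuclear receptor Nur77 in mouse macrophages. The members are 4 ChIP-seq libraries of 26 in the series, chosen by antibody, line and treatment from their titles: 2 of GFP cells given 500 ng/ml LPS for 1 h, and 2 of GFP cells without LPS, called untreated here. RAW 264.7, the parent line, is a transformed mouse macrophage line. The GFP line carries a doxycycline-inducible GFP gene and serves beside a line with inducible HA-tagged Nur77. Per the labels' protocols all cells, untreated ones included, had 50 ng/ml doxycycline for 18 h to switch on the transgene, and chromatin for H3K27ac was fixed with formaldehyde alone. The labels name no clone, and they do not say that the 2 replicates of a group came from separate cultures, so the p-values below measure the spread between these libraries, which may be technical.

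H3K27ac is laid down by the acetyltransferases p300 and CBP at active promoters and enhancers. LPS binds Toll-like receptor 4 on macrophages and sets off NF-kB, MAP kinase with AP-1, and interferon regulatory factor signalling. The earliest targets of these pathways are immediate-early transcription factors, cytokines and chemokines, and the inhibitors that later switch the pathways off.

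The LPS libraries had 25.3 and 22.6 M mapped tags (M, mega) and the untreated libraries 26.9 and 26.1 M. Called peaks held 53.6 and 51.8% of tags after LPS, against 57.2 and 59.5% in untreated cells. Across tested regions the replicates correlated with a Pearson r of 0.981 after LPS and 0.984 untreated, while libraries of different treatment correlated at 0.899 to 0.914. The median absolute log2 difference was 0.17 between LPS replicates and 0.14 between untreated replicates, against 0.45 between the LPS and untreated means. All 8 macrophage marker genes (Spi1, Csf1r, Itgam, Adgre1, Cd68, Lyz2, Fcgr1 and Mpeg1) had a region, with summed normalized tags of 9994 and 9564 after LPS and 11247 and 11323 untreated. Of 22 genes of other cell types, 18 to 19 had no tag in a peak in any given library, and the list summed to 164 and 188 tags after LPS and 276 and 263 untreated. The share of tags in peaks and both marker sums moved with treatment. That share and the summed normalized tags given next are the same quantity on 2 scales, not separate results. The part of these values in the other results below was not tested.

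Summed H3K27ac tags and covered length lay lower in both LPS libraries, while density overlapped between the groups. Peaks held 5.36 and 5.17 M normalized tags (tags per 10 M mapped) after LPS, against 5.72 and 5.95 M untreated, a ratio of means of 0.903. They covered 98.2 and 98.7 Mb after LPS and 103.8 and 114.1 Mb untreated, a ratio of 0.904. Density was 54.6 and 52.4 tags per kb after LPS and 55.1 and 52.2 tags per kb untreated, a ratio of 0.998. The groups did not overlap in summed tags or covered length and overlapped in density. The exact two-sided permutation test gave p = 0.333 for summed tags and for covered length, the smallest that 2 libraries against 2 allow, and p = 1.0 for density.

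**Figure D1:**
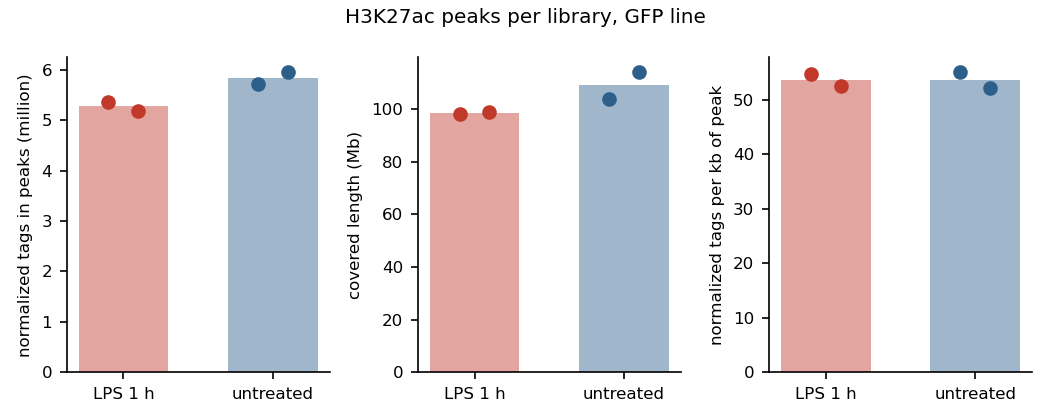
Normalized tags in called H3K27ac peaks (M), covered length (Mb) and tags per kb of peak in the LPS libraries (red) and the untreated libraries (blue) of the GFP line. Points are libraries and bars are means of 2; the LPS libraries hold fewer tags over a shorter length at a like density.

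The promoters shown here belong to regions with the largest gains and a large loss whose region covers the annotated start of the gene. Each is the stretch of 250 bases just upstream of the start, read from RefSeq on GRCm38.p6 (the coordinates of mm10), 5′ to 3′ on the gene's strand, with motif matches in capitals. Acod1 makes the enzyme for itaconate, Cxcl10 is a chemokine for T cells and St6gal1 adds sialic acid to glycoproteins.
Acod1 (chr14:103046762-103047011, plus strand): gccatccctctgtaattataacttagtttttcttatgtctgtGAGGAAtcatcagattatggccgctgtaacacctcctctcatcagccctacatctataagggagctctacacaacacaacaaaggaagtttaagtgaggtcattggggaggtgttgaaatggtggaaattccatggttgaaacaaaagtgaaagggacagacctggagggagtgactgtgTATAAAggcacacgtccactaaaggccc
Cxcl10 (chr5:92348890-92349139, minus strand): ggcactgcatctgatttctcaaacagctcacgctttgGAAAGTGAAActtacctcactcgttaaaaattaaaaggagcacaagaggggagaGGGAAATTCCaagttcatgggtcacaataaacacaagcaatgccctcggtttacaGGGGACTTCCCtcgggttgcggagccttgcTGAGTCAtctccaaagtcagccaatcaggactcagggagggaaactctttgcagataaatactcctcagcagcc
St6gal1 (chr16:23224490-23224739, plus strand): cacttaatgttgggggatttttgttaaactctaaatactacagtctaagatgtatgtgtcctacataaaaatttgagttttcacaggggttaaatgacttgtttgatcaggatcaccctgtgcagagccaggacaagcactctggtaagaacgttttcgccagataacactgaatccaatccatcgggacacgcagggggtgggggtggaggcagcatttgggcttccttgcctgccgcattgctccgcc
Both strands were searched for the NF-kB consensus, the AP-1 site TGANTCA, the PU.1 core GAGGAA, the consensus of the interferon-stimulated response element (ISRE) and the TATA box TATAAA. The Cxcl10 stretch held NF-kB matches 159 to 150 bases and, overlapping each other, 104 to 94 bases before the start, an AP-1 match 74 to 68 bases before it and an ISRE match 213 to 204 bases before it. The Acod1 stretch held a PU.1 core 208 to 203 bases and a TATA box 28 to 23 bases before the start. The St6gal1 stretch, and those of Phldb1 and Gm14902, chosen by the same rule, held none of these letters. Of 32817 promoter stretches of this length, 7.25% held the NF-kB consensus, 6.75% the AP-1 site, 23.3% the PU.1 core, 2.97% the ISRE and 12.4% the TATA box. A match only describes the letters of the stretch.

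H3K27ac was higher after LPS at about as many regions as it was lower, once libraries were scaled to each other. Peaks sharing at least 1 bp across the 4 libraries merged into 63002 regions, of which 31626 had a peak in all 4 and were tested with limma on log2 of the scaled tags plus 1. At a false discovery rate (FDR) of 0.05, 7960 regions were higher after LPS (25.2%) and 7815 lower (24.7%), together 49.9%. Of these, 3022 rose at least 2-fold (9.56% of regions tested) and 2202 fell at least 2-fold (6.96%). The LPS libraries lay above the untreated libraries without overlap at 37.6% of regions and below them at 38.4%. These directions are relative to the typical region, because libraries were scaled to each other: before that scaling the median log2 change of all regions was -0.31, and the same test gave 4612 higher and 13438 lower.

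**Figure D2:**
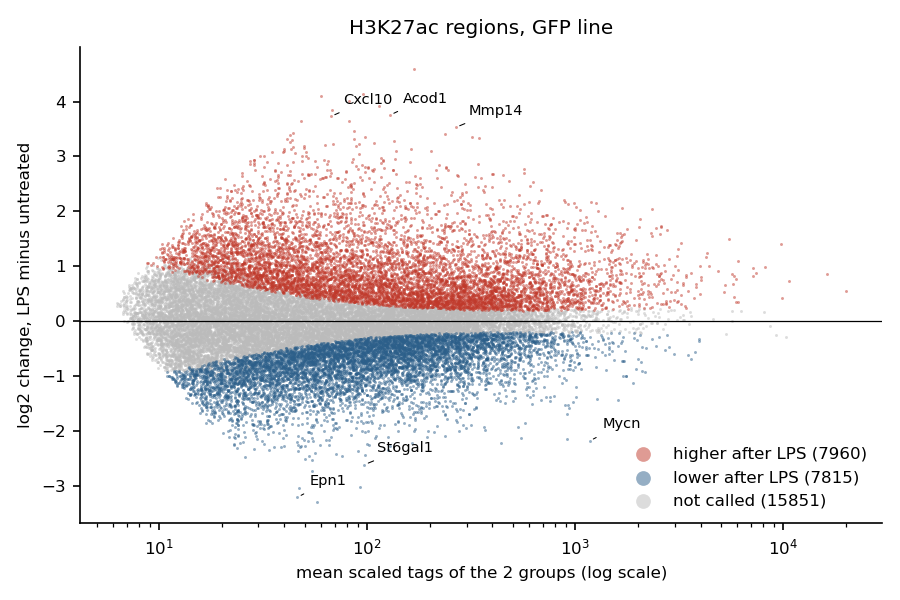
Log2 change of scaled H3K27ac tags, LPS minus untreated (vertical axis), against the mean scaled tags of the 2 groups (horizontal axis, log scale), for the 31626 tested regions. Red points (7960) were higher after LPS, blue points (7815) lower and grey points (15851) did not pass; at few tags only large changes passed.

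Regions that rose and regions that fell differed in both called length and density. Among the regions that rose, the median log2 change of tags was 0.82, that of the length called as peak 0.16 and that of tags per kb 0.65. Of them 73.6% were wider and 99.4% denser after LPS. Among the regions that fell the median was -0.74 for tags, -0.42 for length and -0.30 for density, and 2.02% were wider and 15.02% denser. Over all tested regions the median was -0.15 for length and 0.21 for density, since tags were scaled between libraries and length was not, so both groups are to be read against these values. In the regions that rose at least 2-fold, called length was a median of 2.49 kb after LPS and 1.62 kb untreated, and in those that fell at least 2-fold it was 1.26 kb after LPS and 2.25 kb untreated. A region's value is summed over called length only, so changes in length and in density both enter it.

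Promoters and distal sites differed in balance. Of 8518 regions over an annotated transcription start, 21.6% rose and 33.2% fell, with a median log2 change of -0.10 (10.2 and 60.8% without scaling). Of 16168 regions inside genes without a start, 25.3% rose and 21.2% fell (15.2 and 35.8% without scaling). Of 6064 regions between genes, 29.9% rose and 22.5% fell (19.2 and 35.1% without scaling), and 13.7% rose at least 2-fold, against 4.02% of the regions over starts. Losses of at least 2-fold were also more frequent between genes, 8.79% against 5.80% over starts. Changes spread more widely between genes (SD of log2 change 0.86, against 0.60 over starts), where regions had fewer tags (median 39.7, against 178.7). The share that rose was higher in larger regions: 48.6% of the 555 regions of at least 15 kb rose and 22.9% fell, while 16.3% of those of 1 to 2 kb rose and 17.4% fell. The share that fell was highest, 31.9%, in regions of 4 to 8 kb. Counts for the lead regions of genes below, each the region of the gene with the most tags, stand against these shares.

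Changes of the same sign lay near each other. Among all pairs of tested regions whose centres lay within 50 kb, 25.4% of neighbours were higher and 25.1% lower. Beside a region that rose, 38.4% of neighbours rose and 14.7% fell. Beside a region that fell, 14.9% of neighbours rose and 37.5% fell. These shares describe 1 set of libraries, in which neighbours share library and sequence context.

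The 12 largest gains of regions with a gene within 50 kb and no narrow input peak had few tags before LPS, at most 43.8. The largest, inside the noncoding gene Gm2477 (chr16:84602243-84608972), had 343.5 and 297.5 scaled tags after LPS, against 5.99 and 24.0 untreated, a log2 change of 4.60 ± 0.42 (SE, n = 2 per group here and below; adjusted p = 5.20e-06). The untreated libraries differed between themselves there, and both lay far below the LPS libraries. Calcrl, a receptor for calcitonin-related peptides, had an intragenic region with 155.8 and 151.7 tags after LPS and 10.9 and 6.72 untreated (4.01 ± 0.23). Mmp14, a membrane-bound metalloproteinase, had 543.6 and 440.1 tags after LPS and 43.8 and 39.2 untreated (3.53 ± 0.12), with 8.48 kb called as peak after LPS and 1.62 kb untreated. In none of these did the groups overlap. Called length differed too, as at Gm2477, with a mean of 6.43 kb after LPS and 1.38 kb untreated. Per kb the log2 changes were 1.86 at Gm2477, 1.24 at Calcrl and 0.95 at Mmp14.

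Acod1 had 234.8 and 246.0 tags over its start after LPS, against 14.4 and 19.8 untreated, at chr14:103045999-103052045 (log2 change 3.76 ± 0.17, adjusted p = 5.97e-08). The called peak was 5.51 kb after LPS and 1.35 kb untreated. Cxcl10 had 135.8 and 114.7 tags after LPS and 10.4 and 6.88 untreated over its start and part of Art3, at chr5:92348217-92350428 (3.73 ± 0.24, adjusted p = 4.30e-07). Per kb the log2 change was 1.52 at Acod1 and 1.69 at Cxcl10. The other members of the 12 largest gains lay over Gm32650, Mki67, Pbx4, Phldb1 and Gm32552 and near Siglecg and Manbal, with log2 changes from 3.41 to 3.93. The smallest p among gains belonged to the start of Marcksl1, a regulator of actin, with 653.8 and 606.4 tags after LPS and 64.6 and 57.6 untreated (3.35 ± 0.10, adjusted p = 1.70e-08), then to the region near Manbal and to the start of Dcbld2 (2.53 ± 0.08).

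Neighbourhoods of some of these gains are given as descriptions; they were chosen after their values were seen and their counts include the gains that led to the choice. Of all tested regions 25.2% rose, and within 50 kb of any gain of at least 2-fold 46.5% of neighbours rose and 10.8% fell. These neighbour shares leave out the gain itself and use a shorter distance than the counts below, so they are not like for like. Within 150 kb of Acod1, 9 of 17 tested regions rose and 1 fell, and their summed scaled tags were 4323 and 4075 after LPS, against 1834 and 1845 untreated. Around the chemokine gene Ccl3, 11 of 15 rose and 0 fell, with 11420 and 10482 tags after LPS and 4939 and 4976 untreated; the Gm32650 region lies in this stretch. Around Src, a tyrosine kinase gene next to Manbal, 10 of 13 rose and 1 fell, and the region over the start of Src had a log2 change of 2.61 ± 0.10 (adjusted p = 3.40e-08). The stretch around Cxcl10 was more mixed: 7 of 15 rose and 2 fell, with 1797 and 1581 tags after LPS and 968 and 956 untreated.

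**Figure D3:**
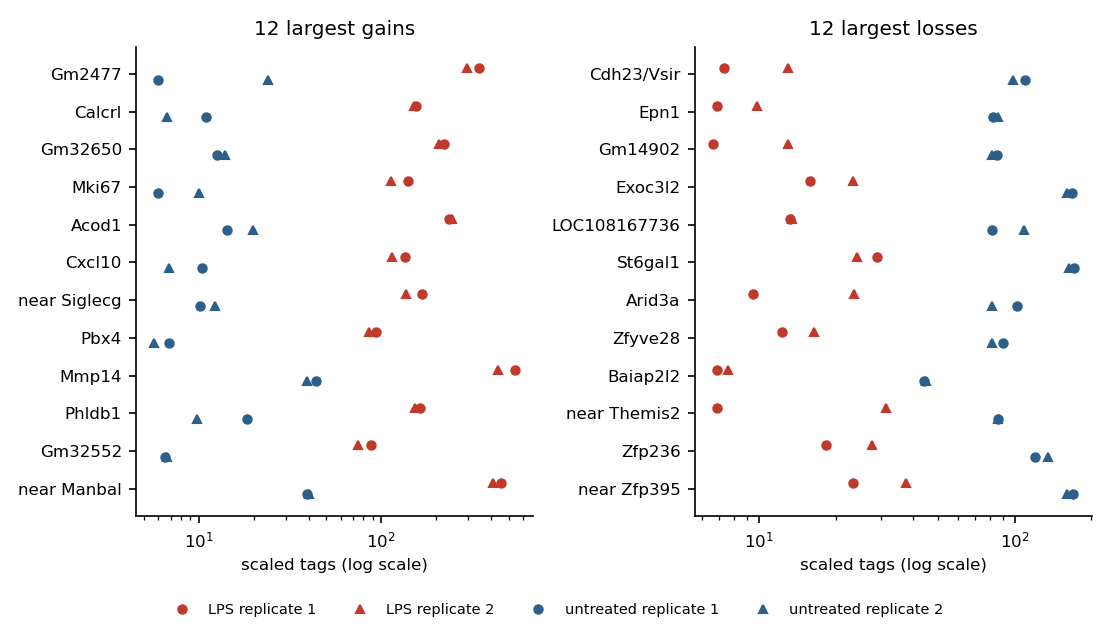
Scaled H3K27ac tags (log scale) of the 12 regions with the largest gain and the 12 with the largest loss, by library. Red marks are LPS libraries and blue marks untreated libraries, circles replicate 1 and triangles replicate 2; the groups do not overlap in any of the 24 regions, and replicates differ most where tags are few, as at Gm2477 and near Themis2.

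The 12 largest losses by the same choice ran from -3.29 to -2.44. The region over Cdh23 and Vsir had 7.29 and 13.0 tags after LPS, against 109.4 and 99.1 untreated (-3.29 ± 0.26, adjusted p = 2.03e-06). Epn1, an endocytic adaptor gene, had 6.84 and 9.80 tags after LPS and 82.2 and 85.8 untreated (-3.21 ± 0.25). Per kb the log2 change was -1.06 over Cdh23 and Vsir and -0.70 over Epn1. The others of the 12 largest losses lay over Gm14902, Exoc3l2, LOC108167736, St6gal1, Arid3a, Zfyve28, Baiap2l2 and Zfp236 and near Themis2 and Zfp395, up to -2.44; near Themis2 the LPS libraries differed (6.84 and 31.4 tags, against 86.5 and 86.3 untreated). The change near Themis2 was -1.43 without LPS replicate 1 and -3.48 without LPS replicate 2, and its call was lost when regions called in 2 or more libraries were tested (adjusted p = 0.0931).

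St6gal1 lost H3K27ac over its start, with 28.9 and 24.3 tags after LPS, against 170.8 and 163.5 untreated (chr16:23224575-23227446; -2.61 ± 0.15, adjusted p = 2.06e-07). Within 150 kb of the gene, chosen for this loss, 13 of 14 tested regions fell and 0 rose, the start included. Of all tested regions 24.7% fell, and within 50 kb of any loss of at least 2-fold 42.1% of neighbours did. That neighbour share leaves out the loss itself and uses a shorter distance, so it is not like for like. The summed tags of these 14 regions were 1784 and 1693 after LPS and 3089 and 3124 untreated. The smallest p among losses was at the start of Mycn, a Myc family transcription factor, which had 431.8 and 414.4 tags after LPS and 1966 and 1877 untreated (-2.18 ± 0.08, adjusted p = 2.52e-08). The Mycn region overlapped one called in input, as did the regions near Manbal and over Arid3a and Gm32006. Next came a region near Gm41964 (-2.22 ± 0.08) and the start of Gm32006 (-2.14 ± 0.08).

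Some regions were called in only 1 condition. A total of 2039 regions had a peak in both LPS libraries and in neither untreated library, and 3371 had a peak in both untreated libraries and in neither LPS library, with median normalized tags of 10.6 and 9.92. The untreated libraries covered more sequence with peaks, and the part of covered length in these 2 counts was not tested. With an equal number of peaks taken from each library, 2143 regions were called only after LPS and 3062 only untreated. Among regions called only after LPS, 1.08% lay over a start, and among those called only untreated 3.89%, against 14.2% of all merged regions. The counts grew when a library was left out: regions called only after LPS ran from 2680 to 6553 and those called only untreated from 4981 to 9974.

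The strongest regions called only after LPS included the start of Mir155hg, the host gene of the microRNA miR-155, a regulator of macrophage activation. It had 149.3 and 169.7 normalized tags after LPS and no called peak in either untreated library (chr16:84710925-84721029). The mature microRNA of this gene, with its seed (bases 2 to 8) in capitals, is read from RefSeq on GRCm38.p6.
mmu-miR-155-5p (chr16:84714143-84714165, plus strand): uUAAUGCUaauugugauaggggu
Within 150 kb of Mir155hg 6 of 8 tested regions rose and 0 fell, the Gm2477 region, which led to this choice, among them, 104.1 kb away. Of all tested regions 25.2% rose, and within 50 kb of any gain of at least 2-fold 46.5% of neighbours did, a share that leaves out the gain itself and uses a shorter distance. The other strongest regions called only after LPS lay in Arhgap22 (199.8 and 131.3 tags after LPS), inside Nfkb1, the NF-kB p105 gene (169.2 and 145.6), in Alpk2 (171.2 and 145.2) and near Atp8b4 (146.9 and 130.6). The strongest regions called only untreated lay in Cpne5 (58.8 and 70.5 tags untreated), Hpse, Naa25, near Rpl14 and at a site of chromosome 13 with no gene within 50 kb, and all were below these in tags.

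Of the 5 regions with the most tags, 4 rose by less than 2-fold and 1 did not pass. The highest lay near Gm33780 on chromosome 2, with 24059 and 23123 scaled tags after LPS and 17729 and 14761 untreated over 1.35 and 1.37 kb (0.54 ± 0.16, adjusted p = 0.0160), a call that was lost without scaling, per kb, with regions called in 2 or more libraries and when either untreated library was left out. It and the regions over Ensa and Mcl1, over 4930471E19Rik and on the unplaced scaffold JH584304 overlapped regions called in input. Of these, only the Gm33780 region also overlapped a narrow input peak. It held 17608 tags per kb after LPS and 11861 untreated, against medians of 31.0 and 28.3 over all tested regions. How much of its signal was H3K27ac was not tested. Mcl1, an inhibitor of apoptosis, shared with Ensa a region of 21844 and 20079 tags after LPS and 11564 and 11377 untreated (0.87 ± 0.14, adjusted p = 0.000424). The regions over 4930471E19Rik (0.73) and over A630001O12Rik and Gm31718 (0.43, a call lost under the same settings) also rose, while the scaffold (-0.29, adjusted p = 0.0781) did not pass.

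Genes were then read by role, each through its lead region, the tested region over the gene or within 1 kb of it with the most tags. Counts without scaling between libraries are given where the split moved. Shares below stand beside 25.2% higher and 24.7% lower and a median log2 change of -0.0032 over all regions tested.

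Among ligands, TNF and interleukin genes gained. Of 20 listed, 12 had a tested region, 11 rose and 1 fell (10 and 1 without scaling), with a median of 1.40. Il1rn, the antagonist of the interleukin-1 receptor, had 719.6 and 682.4 tags after LPS and 208.7 and 223.0 untreated (1.69 ± 0.08, adjusted p = 7.05e-08). Il27, a cytokine subunit gene, had 404.8 and 362.1 tags after LPS and 103.9 and 93.2 untreated (1.95 ± 0.10), and Il23a, another, 300.6 and 264.1 after LPS and 64.5 and 76.4 untreated (1.99 ± 0.12). Tnf lay in a region of 54.5 kb that also spans Lta and Ltb, with 14948 and 13424 tags after LPS and 5557 and 5096 untreated (1.41 ± 0.12, adjusted p = 4.05e-06). Il18 was the member that fell (-0.32 ± 0.09, adjusted p = 0.0152). Il1b, Il6, Il10, Il12a, Il12b, Csf2, Csf3 and Ifnb1 had no region called in all 4 libraries over them. Within 50 kb, 5 of 6 tested regions rose at Il1b, 0 of 2 at Il6, 1 of 3 at Il10, 1 of 1 at Il12b, 0 of 1 at Csf2, 1 of 6 at Csf3 and 0 of 2 at Ifnb1.

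Chemokine genes had 11 of 17 members tested, of which 9 rose and 0 fell, with a median of 1.18. The 11 stand on 9 regions, since Ccl3 with Ccl4 and Cxcl1 with Cxcl2 share theirs. Ccrl2, an atypical chemokine receptor, had 1760 and 1476 tags after LPS and 346.2 and 379.9 untreated (2.15 ± 0.09, adjusted p = 5.14e-08). Ccl2, an attractant of monocytes, had 308.2 and 311.5 after LPS and 100.96 and 99.4 untreated (1.62 ± 0.09). The region of the neutrophil attractants Cxcl1 and Cxcl2 had 2628 and 2281 after LPS and 866.1 and 906.0 untreated (1.47 ± 0.09). Ccl7 (0.83, adjusted p = 0.170) and Ccl6 (0.29, adjusted p = 0.194) did not pass.

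Of 17 tested LPS sensing genes 7 rose and 4 fell (4 and 4 without scaling), with a median of 0.23. Tlr2, a receptor of bacterial lipoproteins, had 2797 and 2616 tags after LPS and 829.7 and 864.0 untreated (1.67 ± 0.08, adjusted p = 7.51e-08). Cd14, a co-receptor of LPS, had 3625 and 3224 after LPS and 1460 and 1498 untreated (1.21 ± 0.09), and Ticam1, an adaptor of Tlr3 and Tlr4, rose by 0.99 ± 0.08. The Ticam1 region is shared with Fem1a, and the annotated start it covers is that of Fem1a. Tlr4 itself had 2548 and 2078 tags after LPS and 1933 and 2022 untreated, a change of 0.22 ± 0.10 that did not pass (adjusted p = 0.101).

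NF-kB subunit and inhibitor genes rose in 11 of 15 and fell in 2 (10 and 4 without scaling), with a median of 0.83. Ikbke, a kinase related to the inhibitor-of-kB kinases, had 1002 and 954.3 tags after LPS and 270.8 and 228.2 untreated (1.97 ± 0.09, adjusted p = 6.55e-08). Nfkbia and Nfkbib, which encode inhibitors that hold NF-kB in the cytoplasm, changed by 1.61 ± 0.08 and 1.58 ± 0.08. Nfkbia had 2507 and 2252 tags after LPS and 788.5 and 768.6 untreated. Bcl3 (-0.28) and Ikbkg (-0.26) fell, while Nfkbid and Chuk did not pass.

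Genes for feedback regulators of ubiquitin signalling (A20, TRAF and cIAP) rose in 11 of 15 and fell in 1 (7 and 3 without scaling), with a median of 0.52. Tnfaip3, the A20 gene that ends NF-kB signalling, had 955.6 and 912.4 tags after LPS and 264.0 and 232.7 untreated (1.91 ± 0.08, adjusted p = 5.14e-08). Traf1, a signalling adaptor, had 1870 and 1671 after LPS and 499.9 and 504.8 untreated, over 12.2 kb called as peak after LPS and 5.68 kb untreated (1.81 ± 0.08). Tnip1, a partner of A20, rose by 0.97 ± 0.08, and Traf5 fell (-0.86 ± 0.13).

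AP-1 family genes were split, with 7 of 13 higher, 4 lower (5 and 5 without scaling) and a median of 0.38. Maff, a small Maf protein gene, had 462.5 and 394.9 tags after LPS and 89.7 and 76.55 untreated (2.35 ± 0.11, adjusted p = 7.24e-08). Atf3, a stress-induced repressor, rose by 1.11 ± 0.09. Fos went the other way, with 419.4 and 366.4 tags after LPS and 893.5 and 920.0 untreated (-1.21 ± 0.08, adjusted p = 7.68e-07), over 5.51 kb after LPS and 9.20 kb untreated. Its region overlapped one called in input. Jun also fell (-0.39 ± 0.07), and Junb rose (0.91 ± 0.09), while Fosb and Jund did not pass.

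Of 22 other immediate-early genes 12 rose and 5 fell (9 and 8 without scaling), with a median of 0.26, which was -0.02 when tags per kb were used. Csrnp1, a nuclear protein gene, had 1028 and 1000 tags after LPS and 302.8 and 274.7 untreated (1.81 ± 0.08, adjusted p = 5.03e-08). Gadd45b, a stress sensor, had 1422 and 1373 after LPS and 438.4 and 422.5 untreated (1.70 ± 0.07), and Myc 312.8 and 280.1 after LPS and 49.4 and 55.3 untreated (2.48 ± 0.11). The nuclear receptor genes of the Nr4a family differed: Nr4a3 rose (0.60 ± 0.09), Nr4a2 fell (-0.67 ± 0.08) and Nr4a1, the Nur77 gene, had 8.61 and 19.1 tags after LPS and 23.6 and 26.7 untreated, which did not pass (-0.91 ± 0.36, adjusted p = 0.0534). Genes of MAP kinases and their phosphatases rose in 8 of 16 and fell in 3 (5 and 6 without scaling, median 0.24). The phosphatase genes Dusp16 (1.06 ± 0.09), Dusp8 (2.02 ± 0.18) and Dusp2 (0.77 ± 0.08) led them, and Dusp6 fell (-0.62 ± 0.08).

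Genes of cytokine mRNA decay and cytokine signal suppression rose in 8 of 14 and fell in 1 (6 and 4 without scaling, median 0.40). The 1 that fell had the smallest p: Zfp36l2, an mRNA decay factor, had 675.7 and 707.6 tags after LPS and 1898 and 1814 untreated (-1.42 ± 0.08, adjusted p = 1.42e-07). Cish, a suppressor of STAT5 signalling, had 187.1 and 167.9 after LPS and 27.2 and 22.5 untreated (2.79 ± 0.15). Zc3h12c, a gene of the regnase family, rose by 1.23 ± 0.09.

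Interferon pathway genes with a tested region were split as well, with 6 of 17 higher and 7 lower (5 and 8 without scaling, median -0.14). Ifit1, Ifit3, Mx1, Rsad2 and Gbp5, also listed, had no region called in all 4 libraries over them. Isg15, a ubiquitin-like modifier, had 278.3 and 266.9 tags after LPS and 72.4 and 61.1 untreated (2.02 ± 0.11, adjusted p = 1.71e-07). Irf1, a transcription factor, had 331.8 and 299.4 after LPS and 118.2 and 117.9 untreated (1.41 ± 0.09), over 7.49 kb after LPS and 2.87 kb untreated. Per kb its change was -0.17 and did not pass (adjusted p = 0.309). Gbp2, a guanylate-binding protein gene, rose by 1.96 ± 0.16, while Ifit2 fell (-1.11 ± 0.17).

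Activation effector genes mostly rose, with 27 of 29 higher, 2 lower (22 and 2 without scaling) and a median of 1.41. This list, like the others, was chosen with earlier results of these data known. It holds Marcksl1 and Acod1, named above for their gains, so its counts and median only describe the genes chosen. Besides Marcksl1, Sod2, the mitochondrial superoxide dismutase gene, had 880.2 and 767.2 tags after LPS and 145.5 and 133.1 untreated (2.55 ± 0.09, adjusted p = 2.66e-08). Cd83, an activation marker, had 908.1 and 833.3 after LPS and 197.7 and 226.4 untreated (2.03 ± 0.09). Ptgs2, the inducible cyclooxygenase gene, had few tags, 40.9 and 45.8 after LPS and 17.7 and 24.2 untreated (1.03 ± 0.24), as had Nos2, the inducible nitric oxide synthase gene (1.19 ± 0.32). Pfkfb3, a regulator of glycolysis, fell over its lead region (-1.42 ± 0.14), and so did Thbs1 (-0.63 ± 0.21).

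**Figure D4:**
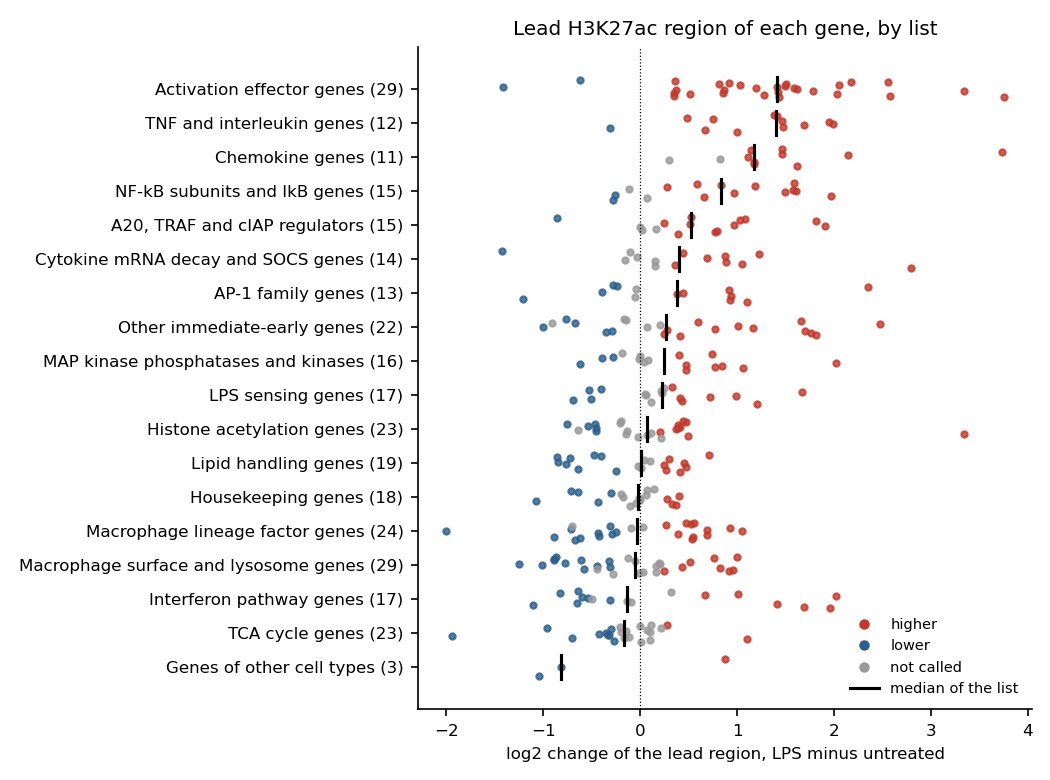
Log2 change (LPS minus untreated) of the lead H3K27ac region of each gene, for 18 gene lists ordered by median, with the number of genes tested in brackets. Each point is a gene (red higher, blue lower, grey not passing) and black bars are medians, which run from 1.41 for activation effectors to -0.16 for TCA cycle genes and -0.81 for the 3 tested genes of other cell types. The lists were chosen with earlier results of these data known, so their order is a description.

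Genes of macrophage identity moved in both directions. Of 24 tested lineage factor genes 11 rose and 10 fell (8 and 13 without scaling, median -0.03). Mitf (1.05 ± 0.09), a factor of lysosome genes, and Runx1 (0.93 ± 0.09), a blood lineage factor, rose. Of 29 surface and lysosome genes 8 rose and 11 fell (6 and 16 without scaling, median -0.05). Fcgr3, an antibody receptor gene, had 189.3 and 161.0 after LPS and 427.5 and 408.4 untreated (-1.25 ± 0.10, adjusted p = 1.35e-06). The lysozyme genes Lyz1 and Lyz2 share a region that fell (-0.89 ± 0.08), and Clec5a, a lectin receptor gene, rose (0.95 ± 0.08). The Fcgr3, lysozyme and Clec5a regions overlapped regions called in input, as did those of Tnf, Ccrl2, Cxcl1, Nfkbia, Atf3, Gbp2, Tlr2, Tlr4, Cd14, Runx1 and Dld named here. Over all 3651 tested regions that did so, 30.8% rose and 22.7% fell.

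Of 23 TCA cycle genes 9 fell and 2 rose (17 and 1 without scaling, median -0.16), beside 33.2% lower and 21.6% higher among all regions over starts. Idh2, the mitochondrial isocitrate dehydrogenase gene, had 29.3 and 27.7 tags after LPS and 129.6 and 97.05 untreated (-1.94 ± 0.18, adjusted p = 5.53e-06). Sdhb, a subunit of succinate dehydrogenase, fell by 0.96 on the log2 scale (adjusted p = 2.59e-05). Dld, shared by pyruvate and ketoglutarate dehydrogenase complexes, rose (1.099 ± 0.08). Of 19 lipid handling genes 7 rose and 8 fell (1 and 12 without scaling, median 0.0042), among them Scd2 (-0.86 ± 0.08) and Mylip (-0.85 ± 0.08), while Srebf2, a regulator of cholesterol synthesis, rose (0.71 ± 0.09). Of 18 housekeeping genes 4 rose and 5 fell (0 and 13 without scaling, median -0.02), among them Tubb5 (-0.71 ± 0.08) and Tbp (-0.64 ± 0.08).

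Of 23 genes for writers, erasers and readers of histone acetylation 9 rose and 5 fell (1 and 11 without scaling, median 0.07). The lead region given to Hdac1 is that of the neighbouring Marcksl1 start. Kat7, an acetyltransferase gene, fell (-0.76 ± 0.09). The p300 gene Ep300 (-0.14, adjusted p = 0.189) and Crebbp (0.07, adjusted p = 0.639) did not pass. Of the genes of other cell types, 3 had a tested region: Cdh1 (-0.81) and Cd4 (-1.05) fell and Gfap (0.88) rose, all with fewer than 100 tags in each library.

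RNA polymerase II (Pol II), measured in other libraries of the same line and treatments (2 of LPS and 2 untreated cells), gave a separate readout at these regions. Of 21143 Pol II regions tested, 1364 were higher after LPS (6.45%) and 872 lower (4.12%). Of the 5135 H3K27ac regions that rose and overlapped a tested Pol II region, Pol II rose at 1345 (26.2%) and fell at 1, with a median Pol II log2 change of 0.83. Of the 5674 that fell and overlapped one, Pol II fell at 789 (13.9%) and rose at 24, with a median of -0.63. Over all 19332 H3K27ac regions with a Pol II region these shares were 7.69% higher and 4.22% lower. At regions with an H3K27ac gain of at least 2-fold, Pol II rose at 59.7% of 1372 and fell at 0. At regions with a loss of at least 2-fold it fell at 37.8% of 1192 and rose at 5.

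Of 1308 Pol II regions that rose and overlapped a tested H3K27ac region, 1273 (97.3%) had H3K27ac higher and 3 lower. Of 825 that fell, 802 (97.2%) had it lower and 2 higher. Over all 19223 overlapping Pol II regions the shares were 26.7% higher and 29.8% lower. Cxcl10 and Acod1 had Pol II log2 changes of 6.99 (adjusted p = 0.00344) and 6.16 (adjusted p = 0.00385), and Mycn -2.77 (adjusted p = 0.00530). Fos, Jun and Irf5 fell in H3K27ac while their Pol II change did not pass (-0.94, 0.68 and 0.63). All Pol II calls given here come from a fit without a replicate block. Deviations of same-numbered Pol II libraries correlated at 0.62, though the labels do not say that a number marks a shared batch. With a block, 3363 regions were higher and 2973 lower in both readouts. Pol II replicates were looser than those of H3K27ac (r of 0.947 after LPS and 0.934 untreated), and with a Pol II library left out the counts higher and lower in both readouts ran from 783 to 1492 and from 138 to 699, both lowest without untreated replicate 2.

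**Figure D5:**
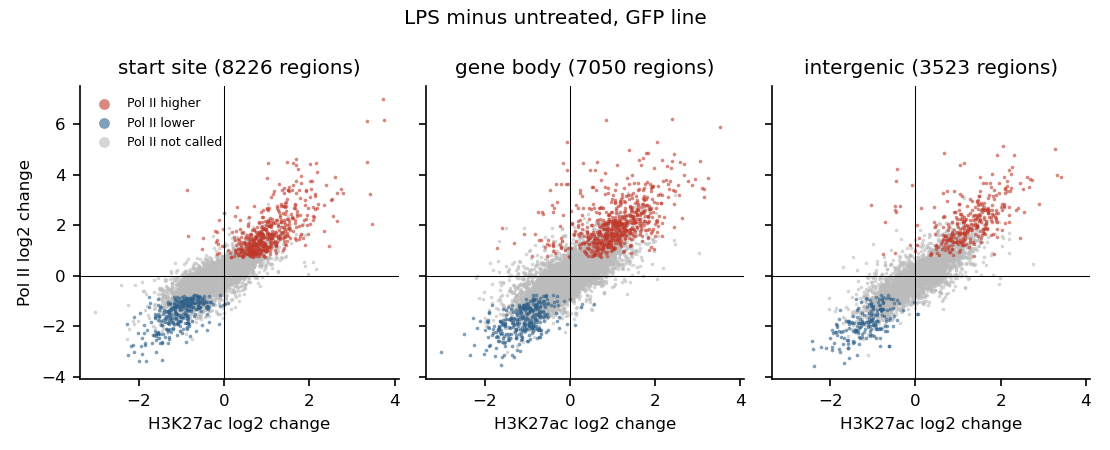
Pol II log2 change (vertical axis) against H3K27ac log2 change (horizontal axis), LPS minus untreated, for H3K27ac regions with an overlapping Pol II region over starts, inside genes and between genes. Points are regions, red where Pol II was higher, blue where lower and grey where it did not pass; most coloured points lie where both readouts have the same sign.

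The response was largely shared with the Nur77 line, tested in 1 fit of 8 libraries (2 per line and treatment). In that fit 7731 of 27095 regions were higher after LPS in Nur77 cells (28.5%) and 7333 lower (27.1%). Of the 7343 GFP regions that rose and had a value there, 6095 (83.0%) also rose in Nur77 cells and 96.8% had the same sign. Of 7274 that fell, 5872 (80.7%) fell in Nur77 cells and 96.5% had the same sign, beside 84.8% of the 28060 tested regions with a value. The difference between the lines in the change after LPS (Nur77 minus GFP) was above 0 at 32 regions (0.118%) and below 0 at 129 (0.476%). These counts ran from 1 to 28 and from 0 to 144 when each library was left out. The first was 1 without untreated Nur77 replicate 2 or untreated GFP replicate 2, and the second 0 without untreated Nur77 replicate 2.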

How the data were processed

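The submitters' processing notes name HISAT2 2.1.0, HOMER and the mm10 build. Per the file headers, H3K27ac and Pol II regions were called per library in histone style at a Poisson p-value of 0.001, without input. Replicate 1 of each H3K27ac group was called without the switch disabling local filtering that replicate 2 had, and headers record 0 peaks lost to that filter in all 4. The signal used is the normalized tag count as deposited, scaled by the authors' software to 10 M mapped tags. Other deposited columns (a score, ratios or fold changes, a fraction and a p-value for each peak) were not tested.

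Peaks sharing 1 bp or more were merged, and tags and called length summed per library. Deposited values were not whole reads, so the count test named in the plan was not run. Scaled tags are normalized tags divided by factors from trimmed means of M-values (30% of M and 5% of A trimmed), 0.893 and 0.902 for LPS and 1.09 and 1.14 for untreated libraries. limma 3.58.1 in R 4.3.3 with a trend and empirical Bayes was fitted to log2(scaled tags + 1) of regions called in all 4 libraries, with Benjamini-Hochberg adjustment over all of them at an FDR of 0.05. The added 1 by itself makes fold changes of regions with few tags smaller. Tags outside called peaks are not counted, which makes fold changes larger where the lower group has the shorter called length. The fit was also run on simulated tags with few changed regions and no change in called length. That simulation cannot test the scaling where many regions change, or the effect of called length. The 2 replicate numbers do not pair the H3K27ac samples (correlation of deviations -0.05), so no block was used for them. The main Pol II fit had no block either, although deviations of same-numbered Pol II libraries correlated at 0.62.

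A gene was given to regions over its span plus 1 kb, else the nearest within 50 kb is named as near, from RefSeq on GRCm38.p6. Regions on chromosome 18 were left out of the classes by position. The naming rule took the 12 largest called gains and losses away from input peaks, the 3 genes with the smallest p in each list, the 3 called regions with the smallest p in each direction, and the 5 strongest regions overall and of each condition. Other genes named were chosen after their values were seen. Some genes that the rule named are not reported here. The members, lists and rules were chosen with earlier results of these data known. Python 3.11.15, pandas 2.3.3 and scipy 1.17.1 were used. Alternatives varied scaling, pseudocount, length, merging, filters, blocks and libraries.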

Additional observations from a re-analysis of the deposited data

Results flagged for a closer look

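At 9 named regions the change after LPS differed between the lines by the test of the difference itself (limma, FDR of 0.05, log2 change in Nur77 cells minus that in GFP cells, 8 libraries). At 8 of them the difference was below 0 and at 1 above 0. Over all 27095 regions it was below 0 at 129 (0.476%) and above 0 at 32 (0.118%). Without untreated Nur77 replicate 2, 0 regions passed below 0, so all 8 of those calls were lost, and 1 region passed above 0. The regions were named for their change in GFP cells, and the same GFP libraries enter the difference, so a smaller change in Nur77 cells is favoured by the choice. Irf1 changed by 0.36 in Nur77 cells and 1.43 in GFP cells, a difference of -1.07 ± 0.12 (SE, adjusted p = 0.00825). In GFP cells the called length at Irf1 was 7.49 kb after LPS and 2.87 kb untreated, and per kb its change there did not pass. The differences between the lines were not tested per kb. Csrnp1 changed by 0.96 in Nur77 cells and 1.83 in GFP cells, a difference of -0.88 ± 0.09 (adjusted p = 0.00825). Nfkbia changed by 1.02 in Nur77 cells and 1.63 in GFP cells (difference -0.61, adjusted p = 0.0152), Ikbke by 1.41 in Nur77 cells and 2.05 in GFP cells (difference -0.64, adjusted p = 0.0396) and Gadd45b by 1.07 in Nur77 cells and 1.72 in GFP cells (difference -0.65, adjusted p = 0.0458). Calcrl changed by 2.38 in Nur77 cells and 3.74 in GFP cells (difference -1.36, adjusted p = 0.0366) and Mmp14 by 2.75 in Nur77 cells and 3.55 in GFP cells (difference -0.81, adjusted p = 0.0376). The region near Manbal gained more in Nur77 cells, 4.53 against 3.43 in GFP cells (difference 1.09, adjusted p = 0.0242). The region over Cdh23 and Vsir, wider when merged across 8 libraries, changed by -2.24 in Nur77 cells and -1.53 in GFP cells (difference -0.70, adjusted p = 0.0207). Groups of 2 libraries are too small for a test of single outlying libraries.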

How the results depend on the processing

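The counts of regions higher (7960) and lower (7815) stayed within 1.5 times under every setting run but the absence of scaling between libraries, which gave 4612 and 13438; leaving out each library gave 6899 to 8246 and 5651 to 8154. At least 2-fold, 3022 regions rose and 2202 fell: 1742 and 4606 without scaling, 606 and 564 per kb, 4572 and 5184 with regions called in 2 or more libraries, 1238 lower with a pseudocount of 10, and 3066 to 3556 and 2183 to 2744 with a library left out. The replicate block gave 7806 higher and 7568 lower, where same-numbered libraries did not deviate together. Ratios of LPS to untreated ran from 0.885 to 0.921 for summed tags, 0.863 to 0.948 for covered length and 0.972 to 1.03 for density with a library left out (alternatives chosen after seeing the data), and summed tags were 0.938 in the replicate 1 pair. Without a library, regions called only after LPS ran from 2680 to 6553 and only untreated from 4981 to 9974, since 1 library then decides a group. The replicate block in the Pol II fit, where deviations of same-numbered libraries correlated at 0.62, gave 3363 regions higher and 2973 lower in both readouts, against 1345 and 789; without a Pol II library these ran from 783 to 1492 and from 138 to 699. With a replicate block within line, the difference between lines (Nur77 minus GFP) was above 0 at 49 regions and below 0 at 191, against 32 and 129, and without a library 1 to 28 and 0 to 144. Of 87 named regions 79 kept direction and call in every setting that covered them, and the only reversal was Irf1 per kb (-0.17); the cause was not tested. The planned count test was not run because the values are not whole reads. Depth limits regions with few tags, where only large changes passed.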
